A study of Capra hircus with 6 samples.

Results

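The genes described here encode 41 enzymes and partners that place or remove methyl groups on histones and DNA, without those of Polycomb repressive complex 2 (PRC2). They were taken by gene symbol from a table of 28907 genes, and each of the 41 symbols matched 1 row. The series measured RNA of the medio-basal hypothalamus, the base of the brain above the pituitary, in adult Alpine goats (Capra hircus). The comparison was between 5 goats taken during the follicular phase, in January, and 8 taken in mid-May, when the animals were in anestrus and had no ovarian cycles. RNA of the goats of a condition was mixed at random into 2 pools for sequencing, so n = 2 pools a group, and how many goats entered a pool, or whether a goat entered both, is not stated. No genotype, treatment or ovariectomy is named for either group, and the luteal goats of January were not analysed here. Season and ovarian state differed together and cannot be told apart.

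Histone methyltransferases add methyl groups from S-adenosylmethionine to lysines of histone tails. Methylation of histone H3 at lysine 9 (H3K9) marks silent chromatin, whereas methylation at lysine 4 (H3K4) marks promoters and enhancers in use and methylation at lysine 36 (H3K36) marks transcribed gene bodies. Demethylases of the LSD type, which use flavin, and of the JmjC type, which use iron and 2-oxoglutarate, take these groups off. DNA methyltransferases (DNMTs) methylate cytosine, UHRF1 brings the maintenance enzyme DNMT1 to newly copied DNA, and TET enzymes oxidise methylcytosine as a step toward its removal. In adult brain many of these enzymes are present in neurons and glia alike, and DNMT3A and the TET enzymes are known for their activity in neurons.

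Follicular pool 1 held 25292678 counts and follicular pool 2 held 17090623, while the anestrus pools held 14553821 (pool 1) and 17910056 (pool 2). Levels are given in CPM, counts scaled to the size of each library after the filter below, times a normalization factor (TMM, 0.9809 to 1.0077). Fold changes are log2 of follicular over anestrus, so that negative values belong to genes with more RNA in anestrus. Each is followed by its standard error, and adjusted p-values come from edgeR's quasi-likelihood test over all 16756 genes that passed a filter on low counts. Transcript lengths were not used, so levels are compared between pools and not between genes. In these pooled pieces of tissue, fewer cells of a type and less RNA per cell cannot be told apart.

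Of the 41 genes, 40 passed the filter and 0 were called changed at an adjusted p of 0.05, beside 0.203% of all genes tested (34 genes, of which 0.191% lower and 0.0119% higher in the follicular phase). At an unadjusted p under 0.05 there was 1 gene of the 40, SUV39H2, beside 8.55% of all genes. The DESeq2 Wald test called 1, again SUV39H2, beside 0.853% of all genes, and limma-voom called 0, beside 0.179%. The log2 fold change was positive for 18 and negative for 22 of the 40, where 49.9% of all genes were positive, and the median was -0.05 beside 0.00 over all genes. For 38 of the 40 (95%) the log2 fold change lay between -0.5 and 0.5, beside 83.1% of all genes and 90.6% of genes with a mean of at least 10 CPM. The 2 outside this band were SUV39H2, higher in anestrus, and UHRF1, higher in the follicular phase, and neither passed the test.

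**Figure D1:**
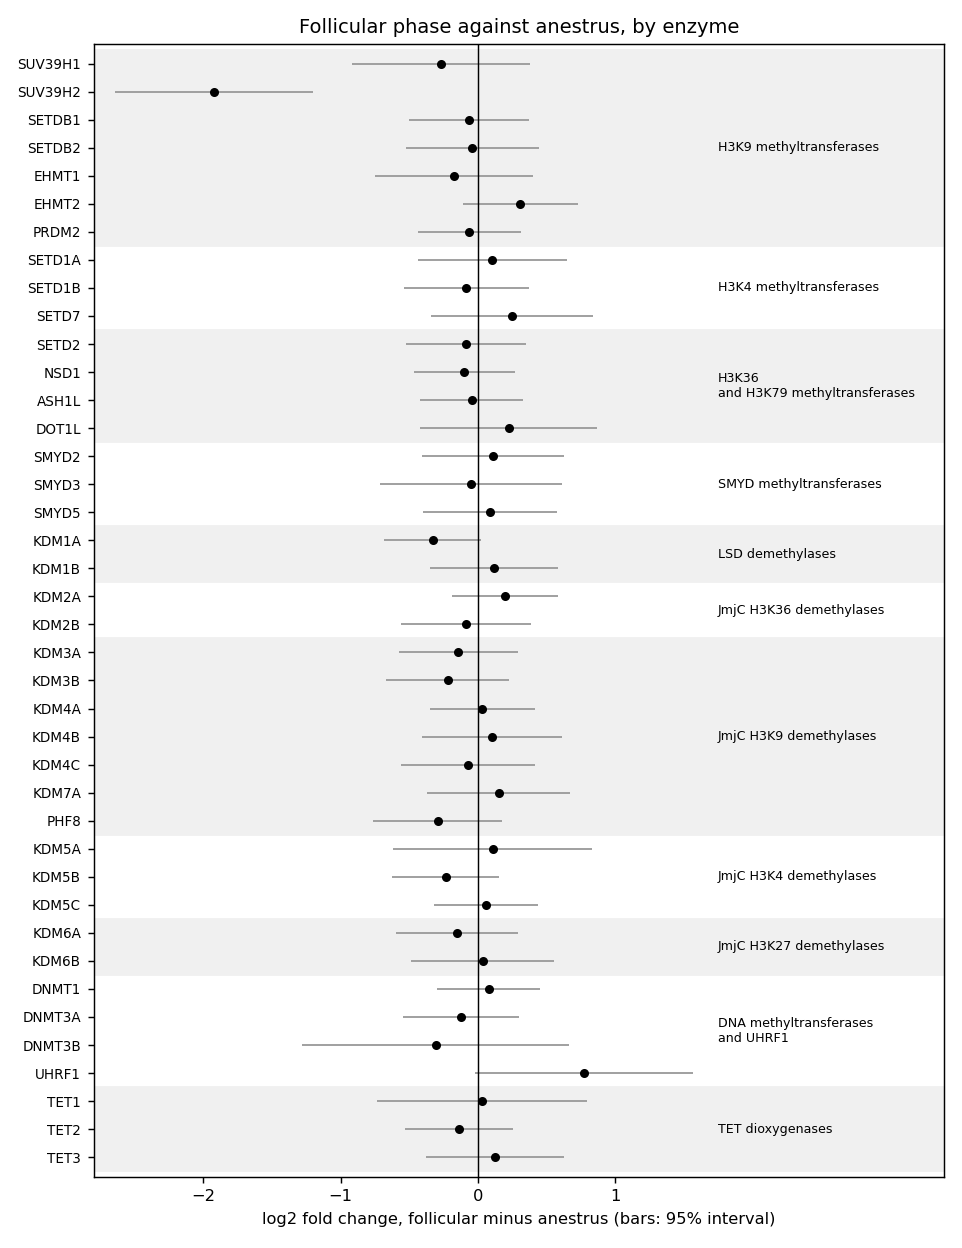
Log2 fold change, follicular minus anestrus, of the 40 enzymes tested, with 95% intervals from the quasi-likelihood fit and shading by role. SUV39H2 stands at -1.92 and its interval does not reach 0, while the other 39 intervals include 0.

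How much these pools can show was given by the 95% intervals of the log2 fold changes. For 37 of the 40 genes the whole interval lay between -1 and 1, so that a 2-fold difference lay outside it, beside 64.2% of all genes and 86.8% of genes with a mean of at least 10 CPM. The 3 exceptions were SUV39H2 (-2.64 to -1.20), DNMT3B (-1.28 to 0.67) and UHRF1 (-0.02 to 1.57). Smaller differences were not resolved. For ASH1L, a methyltransferase that acts on H3K36 and one of the better measured genes, the interval still ran from -0.42 to 0.33.

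Among the 7 methyltransferases of H3K9, SUV39H2 stood apart from the others. SUV39H2, which places trimethylated H3K9 at pericentromeric heterochromatin, stood at 4.41 CPM in follicular pool 1 and 4.59 CPM in follicular pool 2, against 13.2 CPM in anestrus pool 1 and 20.9 CPM in anestrus pool 2. These values rest on 112, 79, 188 and 376 counts. Both anestrus pools lay above both follicular pools, and the anestrus pools also lay apart from each other by 1.58-fold. The follicular mean was 4.50 ± 0.13 CPM and the anestrus mean 17.0 ± 5.44 CPM (SD over n = 2 pools each). The fitted level was 3.79-fold higher in anestrus, at -1.92 ± 0.33 on the log2 scale, and edgeR's adjusted p was 0.0524, just above the threshold. SUV39H2 ranked at position 37 of 16756 genes by p, after 34 called genes. With all pools kept, it passed with DESeq2 size factors, without a count filter, with the DESeq2 Wald test and with a replicate block. These settings called 0.275%, 1.38%, 0.853% and 0.537% of all genes, beside 0.203% as reported. SUV39H2 did not pass with a filter on mean CPM, with limma-voom or without robust estimation. Those called 0.21%, 0.179% and 0.179%. The log2 fold change of SUV39H2 ran from -2.215 to -1.506 over all 11 other ways of analysing the counts. The call thus changed with the method, while the direction was the same in each of the 11. Without follicular pool 1 the adjusted p was 0.802 at a log2 fold change of -1.88.

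**Figure D2:**
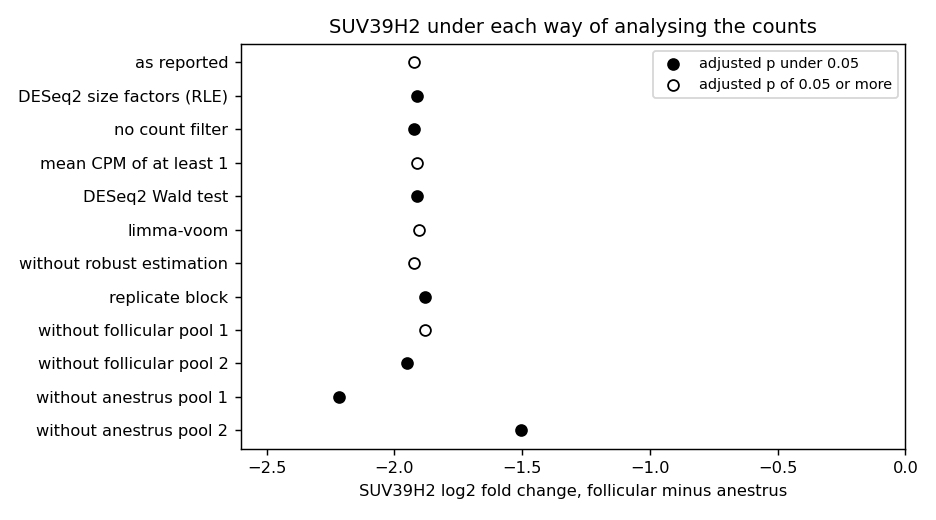
Log2 fold change of SUV39H2, follicular minus anestrus, as reported and under 11 other settings, with filled points where the adjusted p was under 0.05. All points lie between -2.215 and -1.506, and 7 of the 11 alternatives are filled. Settings without a pool leave a single pool in a group.

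SUV39H1, the paralogue of SUV39H2 with the same substrate, was at 8.97 and 8.19 CPM in the follicular pools and at 11.3 and 9.44 CPM in the anestrus pools. Its pools did not overlap either, but by a much smaller gap, and its log2 fold change was -0.27 ± 0.29 (adjusted p = 0.886). The ratio of SUV39H2 to SUV39H1 counts, which needs no scaling between libraries, was 0.491 and 0.560 in the follicular pools, against 1.17 and 2.21 in anestrus. The ratio was thus higher in both anestrus pools than in either follicular pool. Transcript lengths were not used, so the paralogues are not ranked against each other. With 2 pools a group, an exact permutation test of this ratio could not reach a p of 0.05, and none was made.

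EZH2, the H3K27 methyltransferase of PRC2 and a called gene, was at 32.8 and 26.6 CPM in the follicular pools and at 215 and 252 CPM in the anestrus pools. Both genes were higher in both anestrus pools, with log2 fold changes of -1.92 ± 0.33 and -2.98 ± 0.19. The ratio of SUV39H2 to EZH2 counts was 0.134 and 0.173 in the follicular pools, against 0.0612 and 0.0827 in anestrus, lower in both anestrus pools than in either follicular pool. Between the anestrus pools, both were higher in pool 2.

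**Figure D3:**
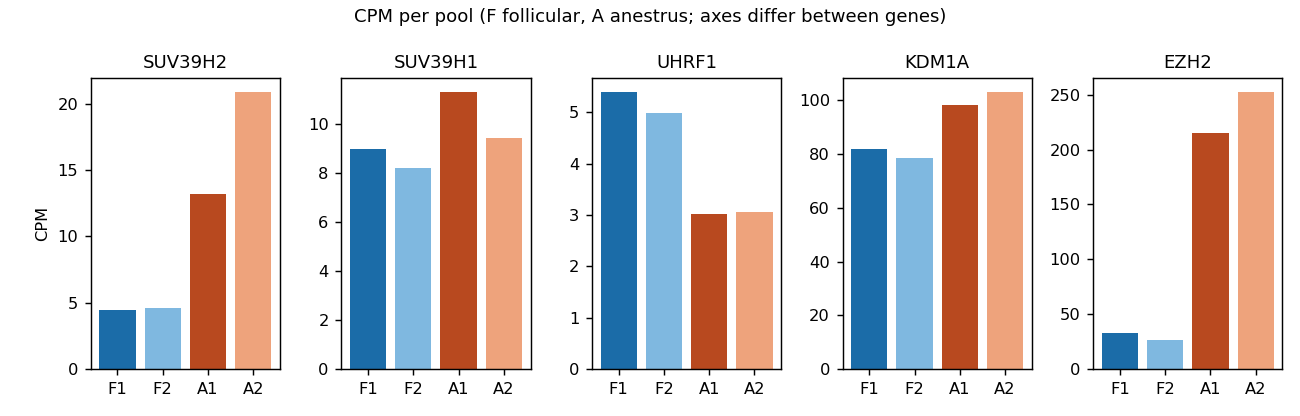
CPM of SUV39H2, SUV39H1, UHRF1, KDM1A and EZH2 in each pool, 1 bar a pool, with axes from 0 that differ between genes. SUV39H2 and EZH2 are several-fold higher in both anestrus pools, KDM1A is higher by a small margin, and UHRF1 is higher in both follicular pools.

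Markers of other cell types moved between the same pools. Of 11 pituitary and pars tuberalis markers matched, 10 were tested and 2 were called, TSHB and CGA, both higher in anestrus, and the summed level was 5458 to 7242 CPM in the follicular pools and 12026 to 15769 CPM in the anestrus pools. Most of this sum was CGA, at 5232 and 4295 CPM in the follicular pools and 13142 and 10309 CPM in the anestrus pools. Of the 10 tested, 8 had negative log2 fold changes and 2, CHGA and LHB, positive ones. The astrocyte sum ran the other way, at 10589 to 11486 CPM in the follicular pools and 6501 to 6591 CPM in anestrus. Of 8 astrocyte markers 1, GFAP, was called, higher in the follicular phase. Neuron markers (9 matched, 0 called) summed to 4915 to 5627 CPM and 4163 to 4353 CPM in the same order, and oligodendrocyte markers (10 matched, 0 called) to 3538 to 4766 CPM and 1934 to 2992 CPM. Microglia markers (8 matched, 0 called) summed to 416 to 439 CPM and 349 to 351 CPM, and vascular and meningeal markers (10 matched, 0 called) to 1060 to 1187 CPM and 1440 to 1561 CPM. Of these 10 vascular and meningeal markers 5 had positive and 5 negative log2 fold changes, with a median of -0.004. The 3 whose pools did not overlap, COL1A2, DCN and LUM, were higher in anestrus. Markers of oligodendrocyte precursors (7 matched, 0 called) summed to 344 to 375 CPM and 246 to 268 CPM. Markers of tanycytes and ependyma (9 matched, 1 called, DIO2, higher in anestrus) summed to 983 to 1085 CPM and 1223 to 1378 CPM. DIO2 itself was at 115 and 105 CPM, and at 230 and 276 CPM. Of these 9 markers 4 had positive and 5 negative log2 fold changes, and FOXJ1 and CCDC153 were higher in both follicular pools. The unadjusted p was under 0.05 for 3 of 9 neuron, 6 of 8 astrocyte, 9 of 10 oligodendrocyte, 4 of 7 precursor and 1 of 8 microglia markers. It was also under 0.05 for 4 of 10 pituitary, 1 of 9 tanycyte and ependyma and 3 of 10 vascular markers, beside 8.55% of all genes. No matched marker was at 0 counts in all pools. The part of cell composition in the values of SUV39H2 and the other enzymes was not tested.

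The other writers of H3K9 methylation differed little between the groups. EHMT2 (also called G9a), which makes most dimethylated H3K9 in euchromatin, was at 93.9 and 74.1 CPM in the follicular pools and at 74.9 and 60.9 CPM in the anestrus pools. Its groups overlapped, at a log2 fold change of 0.31 ± 0.19 (adjusted p = 0.736). EHMT1, its partner in a heterodimer, was at 28.0 and 27.5 CPM in the follicular pools and at 39.2 and 23.6 CPM in the anestrus pools. The follicular values of EHMT1 thus fell between the anestrus values, and the log2 fold change was -0.18 ± 0.26. The ratio of EHMT2 to EHMT1 counts was 3.35 and 2.70 in the follicular pools, against 1.91 and 2.58 in anestrus. SETDB1, which silences retroelements with TRIM28, had a log2 fold change of -0.07 ± 0.20, its relative SETDB2 one of -0.04 ± 0.22, and PRDM2 (also called RIZ) one of -0.06 ± 0.17.

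None of the 3 enzymes placed here with H3K4 methylation passed. SETD7, which monomethylates H3K4 and many proteins other than histones, was at 29.3 and 33.1 CPM in the follicular pools, and at 19.6 and 32.9 CPM in anestrus. Anestrus pool 1 alone was low, and the log2 fold change was 0.25 ± 0.27 (adjusted p = 0.882). SETD1A, a catalytic subunit of the COMPASS complexes, was at 20.1 and 17.3 CPM in the follicular pools and at 17.2 and 17.5 CPM in anestrus, with a log2 fold change of 0.10 ± 0.25. Its paralogue SETD1B had one of -0.08 ± 0.21.

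The writers of H3K36 and H3K79 methylation gave log2 fold changes from -0.10 to 0.22. DOT1L, the H3K79 methyltransferase, which has no SET domain, was at 28.7 and 18.3 CPM in the follicular pools and at 24.0 and 16.4 CPM in the anestrus pools. In each group pool 1 was the higher, so the spread within groups exceeded the difference between them (0.22 ± 0.29, adjusted p = 0.914). NSD1, which dimethylates H3K36, was at 136 and 139 CPM in the follicular pools and at 132 and 162 CPM in anestrus (-0.10 ± 0.17). SETD2, which trimethylates H3K36 and travels with RNA polymerase II, had a log2 fold change of -0.09 ± 0.20, and ASH1L one of -0.05 ± 0.17.

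SMYD1, the skeletal and cardiac muscle member of the SMYD family, had 2 counts in follicular pool 1 and 0 in the other pools, and did not pass the filter. Both groups were thus at or under 3 counts, and no fold change is given. SMYD2, which methylates H3K36 and p53, was at 33.1 and 41.4 CPM in the follicular pools and at 40.4 and 28.6 CPM in the anestrus pools, overlapping widely (0.11 ± 0.23). SMYD5 was at 27.7 and 24.9 CPM in the follicular pools and at 26.3 and 23.1 CPM in anestrus (0.09 ± 0.22). SMYD3 had a log2 fold change of -0.05 ± 0.30. None of the SMYD genes tested passed.

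KDM1A (also called LSD1), the flavin-dependent H3K4 demethylase of the CoREST repressor complex, was at 81.7 and 78.5 CPM in the follicular pools and at 98.4 and 103 CPM in the anestrus pools. Both anestrus pools lay above both follicular pools, and the gap between groups exceeded the spread within either. The level was 1.26-fold higher in anestrus, at -0.33 ± 0.16 on the log2 scale (95% interval from -0.69 to 0.02, adjusted p = 0.627). Its relative KDM1B was at 34.9 and 44.9 CPM in the follicular pools and at 34.0 and 39.4 CPM in anestrus, overlapping (0.12 ± 0.21). HDAC1, the deacetylase that shares the CoREST complex with KDM1A, was at 114 and 116 CPM in the follicular pools and at 136 and 149 CPM in anestrus (-0.31 ± 0.16, adjusted p = 0.662). RCOR1, the CoREST scaffold itself, had -0.24 ± 0.21. It was named after its value was seen, and none of the 3 passed.

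Neither of the JmjC demethylases of H3K36 passed. KDM2A was at 94.8 and 114 CPM in the follicular pools and at 84.3 and 97.7 CPM in anestrus, overlapping (0.20 ± 0.18). KDM2B, which also recruits a variant Polycomb complex 1 to CpG islands, was at 24.6 and 26.0 CPM in the follicular pools and at 26.5 and 27.4 CPM in anestrus. The pools of KDM2B did not overlap although the log2 fold change was only -0.09 ± 0.21, which shows how little the lack of overlap says with 2 pools. In all, 6 of the 40 genes were lower in both follicular pools than in either anestrus pool (SUV39H1, SUV39H2, KDM1A, KDM2B, PHF8 and KDM5B), beside 20.7% of all genes. A single gene, UHRF1, was higher in both, beside 17.6% of all genes, so that both counts were at or under the background.

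The 7 JmjC demethylases of H3K9 had log2 fold changes from -0.29 to 0.15. PHF8, which removes dimethylated H3K9 and monomethylated H4K20, was at 26.9 and 30.9 CPM in the follicular pools and at 32.7 and 38.1 CPM in anestrus (-0.29 ± 0.21, adjusted p = 0.781). KDM3B was at 90.0 and 93.5 CPM in the follicular pools and at 85.9 and 128 CPM in anestrus, where pool 2 alone was high (-0.22 ± 0.20). KDM3A, a hypoxia-inducible relative of KDM3B, had a log2 fold change of -0.14 ± 0.20. The trimethyl demethylases KDM4A, KDM4B and KDM4C had 0.03 ± 0.17, 0.10 ± 0.23 and -0.07 ± 0.22. KDM7A, which acts on H3K9 and H3K27, was at 44.2 and 50.3 CPM in the follicular pools and at 32.9 and 51.9 CPM in anestrus, again with anestrus pool 1 low (0.15 ± 0.24).

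KDM5A, an H3K4 demethylase, had the widest spread within a group of the 40 genes. It was at 43.8 and 45.0 CPM in the follicular pools, with 26.4 CPM for anestrus pool 1 and 55.9 CPM for anestrus pool 2, on either side of the follicular values. Its log2 fold change was 0.11 ± 0.32 with all pools, 0.797 without anestrus pool 2 and -0.333 without anestrus pool 1. Each value without a pool compares the follicular pools with a single anestrus pool, and with all pools KDM5A was far from the threshold (adjusted p = 0.967). KDM5B was at 62.4 and 54.9 CPM in the follicular pools and at 65.0 and 73.1 CPM in anestrus (-0.24 ± 0.18, adjusted p = 0.795). KDM5C, an X-linked demethylase that represses neuronal genes outside neurons, was at 106 and 86.5 CPM in the follicular pools and at 90.2 and 94.8 CPM in anestrus, overlapping (0.06 ± 0.17).

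The H3K27 demethylases remove the mark that EZH2 places, and neither of them passed. KDM6A (also called UTX) was at 68.1 and 69.7 CPM in the follicular pools and at 62.5 and 90.4 CPM in anestrus (-0.15 ± 0.20, interval from -0.60 to 0.29). KDM6B (also called JMJD3), which is inducible by signals, was at 28.5 and 23.2 CPM in the follicular pools and at 28.2 and 22.4 CPM in anestrus (0.03 ± 0.24, interval from -0.49 to 0.55). The groups overlapped for both.

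Of the enzymes of DNA methylation, UHRF1 had the largest difference and none passed. UHRF1 was at 5.39 and 5.00 CPM in the follicular pools and at 3.01 and 3.05 CPM in anestrus, from 137, 86, 43 and 55 counts. The pools of each group were close together and the groups did not overlap. The level was 1.71-fold higher in the follicular phase, at a log2 fold change of 0.78 ± 0.36 (adjusted p = 0.598), and the value stayed between 0.735 and 0.829 over the 11 alternatives without passing in any. The 14 markers of dividing cells, in which UHRF1 is usually expressed, summed to 120 to 130 CPM in the follicular pools and 149 to 170 CPM in anestrus, with 0 of 13 tested called and 1 at an unadjusted p under 0.05. Most of this sum was PCNA (49.0 and 53.2 CPM, against 77.6 and 70.9 CPM) and CCNA2 (28.1 and 33.5 CPM, against 43.2 and 37.9 CPM). Of the 13 tested, 5 had positive and 8 negative log2 fold changes, with a median of -0.24. The part of dividing cells in the value of UHRF1 was not tested. In the RefSeq annotation UHRF1 overlaps ARRDC5 and 1 other gene, and reads shared with them could not be separated. ARRDC5 was at 1.85, 1.63, 1.40 and 0.61 CPM in the same order of pools.

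DNMT1, the maintenance methyltransferase, was at 87.5 and 79.5 CPM in the follicular pools and at 73.3 and 84.7 CPM in anestrus, overlapping, at a log2 fold change of 0.08 ± 0.17 with an interval from -0.30 to 0.46. DNMT3A, the main de novo methyltransferase of adult brain, was at 156 and 136 CPM in the follicular pools and at 133 and 186 CPM in anestrus (-0.13 ± 0.19, interval from -0.55 to 0.30). The follicular values of DNMT3A lay between the anestrus values. DNMT3B, the de novo methyltransferase of early embryos, was at 1.77 and 2.50 CPM in the follicular pools and at 2.87 and 2.39 CPM in anestrus, from 41 to 45 counts a pool (-0.31 ± 0.44). The interval of DNMT3B, from -1.28 to 0.67, did not exclude a level 2-fold higher in anestrus.

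The 3 TET enzymes did not pass. TET1 was at 13.0 and 17.6 CPM in the follicular pools and at 10.1 and 19.7 CPM in anestrus. In each group pool 2 was the higher, by 1.36-fold and 1.95-fold, and the log2 fold change was 0.03 ± 0.34 (interval from -0.73 to 0.79). TET2 was at 112 and 129 CPM in the follicular pools and at 117 and 148 CPM in anestrus (-0.14 ± 0.18, interval from -0.53 to 0.26). TET3 was at 29.9 and 33.6 CPM in the follicular pools and at 24.7 and 33.4 CPM in anestrus (0.13 ± 0.23, interval from -0.38 to 0.63). The pools of the groups overlapped for all 3.

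**Figure D4:**
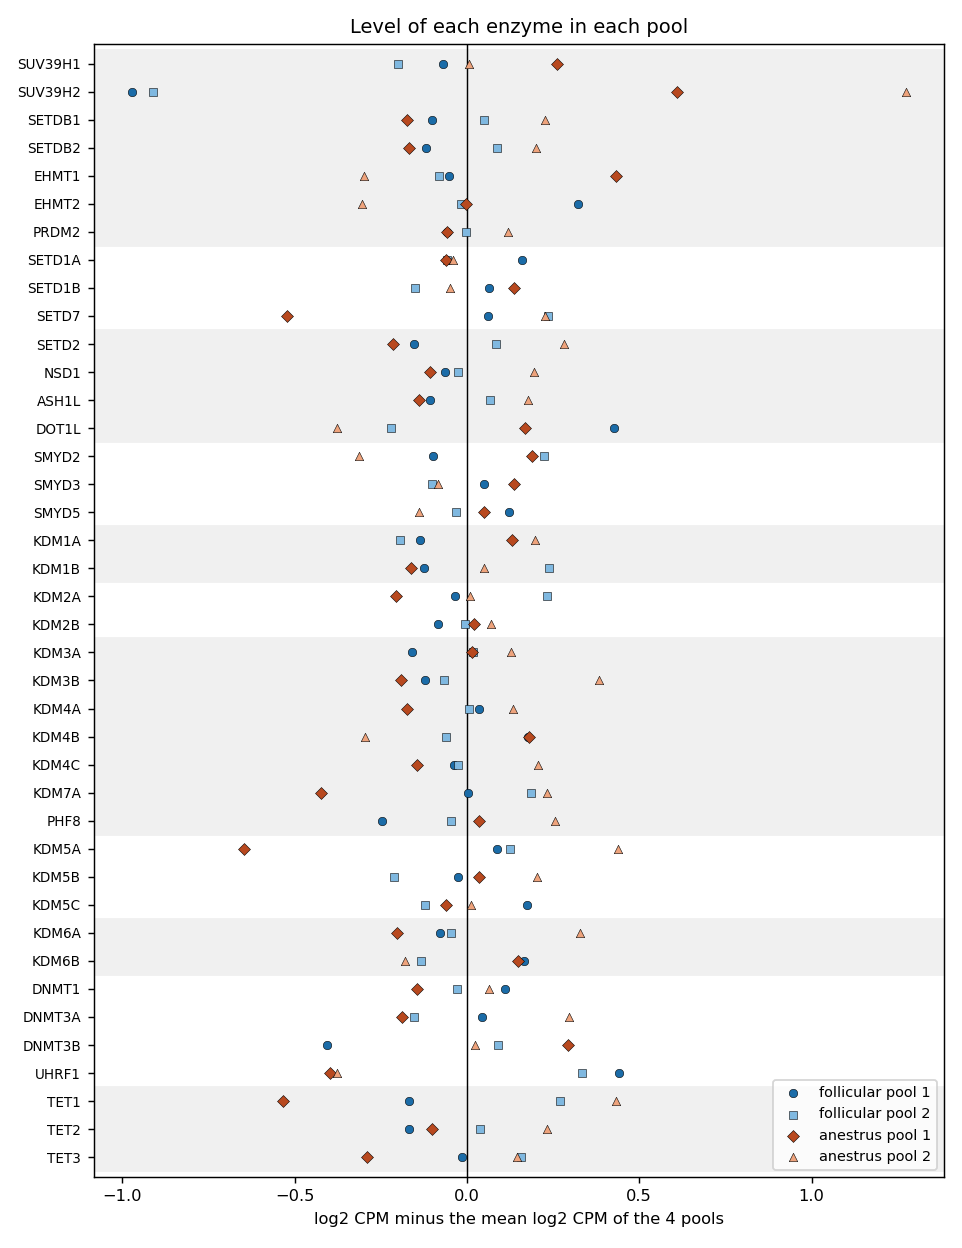
Log2 CPM of each of the 40 enzymes in each pool, minus the mean of its 4 pools, with rows shaded by role. Most rows mix blue (follicular) and orange (anestrus) points, anestrus pool 1 is often at the left and anestrus pool 2 at the right, and SUV39H2 is the row in which the groups are farthest apart.

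A difference between the anestrus pools ran through many of these genes. Anestrus pool 1 held the lowest of the 4 values for 20 of the 40 genes, beside 25.8% of all genes, and anestrus pool 2 held the highest for 21, beside 26.2%. Both held for 13 genes (32.5%), beside 10% of all genes: SETDB1, SETDB2, SETD2, NSD1, ASH1L, KDM3B, KDM4A, KDM4C, KDM7A, KDM5A, KDM6A, DNMT3A and TET1. In the lists of related genes described below, the share was 33.3% for other SET methyltransferases and for readers, 30% for PRC2 and 28.6% for other JmjC proteins. It was 16.7% for complex partners, 12.5% for partners of DNA demethylation, 9.09% for cofactor genes and 0% for arginine methyltransferases. Anestrus pool 2 was above anestrus pool 1 for 29 of the 40 (72.5%), beside 46.1% of genes with counts in every pool. Log2 CPM minus each gene's own mean, averaged over the 40 genes, came to -0.03 for follicular pool 1, -0.01 for follicular pool 2, -0.06 for anestrus pool 1 and 0.10 for anestrus pool 2. Over all genes tested it was 0.03, -0.01, 0.03 and -0.05 in the same order. No test was made of this pattern, which was noticed in these values, and what differs between the anestrus pools is not given in the labels.

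The ratio of the anestrus pools, larger over smaller, had a median of 1.24 over the 40 genes and was over 1.5 for 6, namely KDM5A (2.12), TET1 (1.95), SETD7 (1.68), EHMT1, SUV39H2 and KDM7A. EHMT1 alone of the 6 was higher in anestrus pool 1. Between the follicular pools the median ratio was 1.13, and DOT1L (1.57) alone was over 1.5. The anestrus pools lay farther apart than the follicular pools for 28 of the 40 genes (70.0%), beside 60.7% of genes with counts in every pool. The share of the 40 genes over 1.5 in anestrus was 15%, beside 25% of genes with counts in every pool and 14.9% of those that also had a mean of at least 10 CPM.

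**Figure D5:**
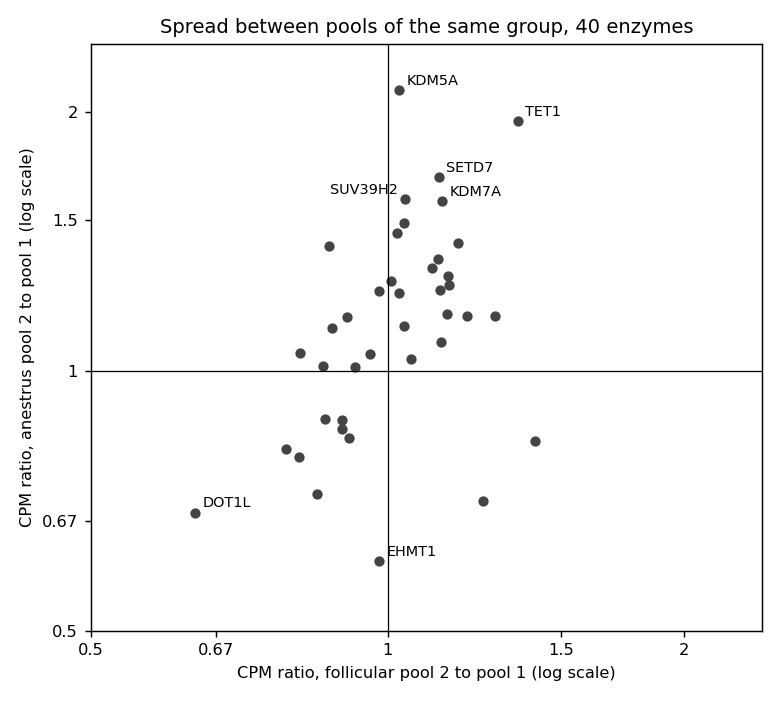
Ratio of pool 2 to pool 1 in anestrus against the same ratio in the follicular phase for the 40 enzymes, both on log scales, with the genes over 1.5-fold apart in either group named. Points spread more along the anestrus axis, up to 2.12 for KDM5A, than along the follicular axis.

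The rest of the machinery was described with 8 lists of related genes, in which EZH2 was the only gene called, beside 0.203% of all genes tested. At an unadjusted p under 0.05 the 8 lists held EZH2 and HR alone, beside 8.55% of all genes. DESeq2 and limma-voom each called 1 gene of them, EZH2, beside 0.853% and 0.179% of all genes. For PRC2, 1 of 10 tested genes (EZH2) was called and the median log2 fold change was -0.09. PHF19, a PRC2 accessory gene, had the next smallest p, at 0.54 ± 0.33. Among 15 other SET methyltransferases, which include the KMT2 family of H3K4 writers, 0 were called and the median was -0.04. PRDM16 and SMYD4 had the smallest p there, at 0.42 ± 0.30 and -0.33 ± 0.25. NSD2, NSD3 and SETMAR were not matched by symbol.

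Of 7 other JmjC proteins 0 were called, with a median of 0.08. HR (hairless), a JmjC protein and corepressor of nuclear receptors, was at 37.0 and 22.5 CPM in the follicular pools and at 15.6 and 16.9 CPM in the anestrus pools. Both follicular pools were above both anestrus pools, at a log2 fold change of 0.88 ± 0.27 (adjusted p = 0.351), and HR was not called in any setting that kept all pools. JARID2, a JmjC protein without demethylase activity that works with PRC2, had 0.22 ± 0.18. The arginine methyltransferases (9 tested, 0 called) had a median of 0.00, with 0.34 ± 0.23 for PRMT2 and -0.22 ± 0.18 for PRMT9.

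Complex partners such as the COMPASS subunits, the CoREST proteins and TRIM28 (18 tested, 0 called) had a median of -0.12, with the smallest p for HDAC1 and ATF7IP (-0.27 ± 0.19), a stabiliser of SETDB1. Readers of methylated lysine and methylated CpG (15 tested, 0 called) had a median of -0.05. MBD2, which binds methylated CpG, and CBX1, a heterochromatin protein 1 that binds the H3K9 mark made by SUV39H2, had -0.30 ± 0.19 and -0.22 ± 0.16. Partners of DNA demethylation (8 tested, 0 called) had a median of 0.04. GADD45A, a stress-inducible gene linked to active demethylation, was at 36.3 and 12.8 CPM in the follicular pools and at 15.9 and 10.4 CPM in anestrus. Follicular pool 1 alone was high, and the log2 fold change was 0.91 ± 0.47 (adjusted p = 0.672). GADD45B had -0.35 ± 0.30. The list for cofactor metabolism, chosen around S-adenosylmethionine and 2-oxoglutarate (11 tested, 0 called), had a median of 0.02. The smallest p were those of AHCYL1 (0.29 ± 0.16), listed as a relative of AHCY, and of AHCY itself (0.36 ± 0.24).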

How the data were processed

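Whole-number read counts per gene were deposited by the authors without normalization. TriReagent was used for extraction and a stranded mRNA kit for the libraries, per the labels' protocols. Per the submitters' processing notes, the tools were featureCounts 2.0.0, TopHat2 2.1.1 with Bowtie2 2.3.5.1, SAMtools 1.9, FastQC and bcl2fastq 2.20. The sources used here do not give the build, annotation, strand setting or handling of multiply mapped reads, so no coordinates are printed. All 41 members were found in the RefSeq table of assembly ARS1.2, and 14 overlap another annotated gene there, so shared reads are possible for these.

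Counts were filtered with filterByExpr (minimum count 10, minimum total 15), given TMM factors and compared by edgeR 4.0.16 (R 4.3.3; robust glmQLFit, then glmQLFTest, 2-sided), with Benjamini-Hochberg adjustment over all genes tested and 2 residual degrees of freedom. A gene is called at an adjusted p under 0.05. Standard errors are the log2 fold change divided by the root of the F statistic. The steps were tested on simulated counts. P-values measure the spread between pools, not goats. In the fit each gene's variance was drawn toward a trend over all genes, so errors and intervals do not rest on its own pools alone. Centred log2 CPM used a prior count of 2.

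Members, role groups, the 8 lists of related genes and 9 marker lists (190 entries, 180 matched) were chosen with earlier results of these data known. Pool values are printed for the 2 genes of each role group with the smallest p, for DNMTs, TETs and UHRF1, for SMYD1, and for SUV39H1, EHMT1, KDM7A and KDM5A, the last 4 chosen after their values were seen. Of the related lists, called genes and the 2 smallest p were named, with RCOR1 added. For anestrus, pool numbers follow the library names, which run opposite to the titles.

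Alternatives were other size factors, other filters, DESeq2 1.42.0, limma-voom (limma 3.58.1), no robust estimation, a replicate block and leaving out each pool.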

Additional observations from a re-analysis of the deposited data

How the results depend on the processing

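With 2 pools a group, the counts of calls and the signs of small differences depended on single pools. The 34 genes called over the whole table became 300 without a count filter (127 higher and 173 lower in the follicular phase), 143 with the DESeq2 Wald test and 90 with a replicate block, and ranged from 4 (without follicular pool 1) to 810 (without anestrus pool 1) when a pool was left out. Of the members, 0 were called as reported and 1, SUV39H2, with DESeq2 size factors, without a count filter, with DESeq2 and with the replicate block (adjusted p of 0.0384, 4.86e-06, 6.77e-05 and 0.0172). Its adjusted p was 0.0523 with a filter on mean CPM, 0.0658 with limma-voom and 0.0561 without robust estimation. Leaving out a pool gave 0 to 2 called members, the second being KDM5A without anestrus pool 2, and 1 to 2 called genes of the related lists, with EZH2 in every setting, joined by GADD45A without follicular pool 2 or anestrus pool 1 and by HR without anestrus pool 2. The deviations of same-numbered pools correlated at r = 0.26 across genes, but nothing in the labels ties the numbers to shared goats, so the block stands as an alternative only. Of 440 log2 fold changes over 11 alternatives, 37 changed sign, all when a pool was left out and for 27 genes, none of which passed with all pools. The cause was not tested. The ranges without 1 pool were SETDB1 -0.253 to 0.193, SETDB2 -0.214 to 0.199, SETD2 -0.313 to 0.227, ASH1L -0.197 to 0.164, DOT1L -0.119 to 0.519, KDM4B -0.071 to 0.357, KDM5C -0.081 to 0.199, KDM6B -0.106 to 0.206, SETD1B -0.176 to 0.018, SMYD2 -0.075 to 0.379, SMYD3 -0.114 to 0.061, KDM1B -0.073 to 0.304, TET1 -0.371 to 0.640, EHMT1 -0.453 to 0.233, SETD7 -0.078 to 0.716, KDM4A -0.115 to 0.240, KDM7A -0.138 to 0.563, KDM5A -0.333 to 0.797, DNMT1 -0.022 to 0.233, TET3 -0.075 to 0.406, PRDM2 -0.151 to 0.071, NSD1 -0.242 to 0.105, KDM3B -0.479 to 0.140, KDM4C -0.239 to 0.157, KDM6A -0.394 to 0.184, DNMT3A -0.347 to 0.181 and TET2 -0.295 to 0.085. For the other 13 genes the sign held in all 11 alternatives.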

Other observations

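Summed by role, 7 of the 11 groups of enzymes had both follicular sums between the anestrus sums. The 3 TET genes summed to 155 and 180 CPM in the follicular pools and to 152 and 201 CPM in the anestrus pools. The DNMTs with UHRF1 summed to 251 and 223 CPM, and to 212 and 276 CPM, in the same order. The writers of H3K36 and H3K79 methylation summed to 435 and 468 CPM in the follicular pools and to 419 and 521 CPM in anestrus, and the JmjC demethylases of H3K9 to 352 and 363 CPM and to 333 and 418 CPM. The SMYD methyltransferases and the JmjC demethylases of H3K4 and of H3K27 were the other three. The LSD demethylases were the 1 group whose conditions did not overlap, at 117 and 123 CPM in the follicular pools and 132 and 142 CPM in anestrus. These sums weigh well expressed genes most and were not tested, and the groups described were chosen after the values were seen.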
